A study of Mus musculus with 8 samples.

Results

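The question was which transcripts changed after stress on ribosomes that carry phosphorylated ribosomal protein S6. The pS6 immunoprecipitates (IP) of the lateral septum were compared between restraint-stressed (RS) and naive mice. The comparison set the 2 RS IP libraries against the 2 naive IP libraries, 4 of the 8 libraries of the series, over 14365 genes, while the error of each gene was estimated from all 8. The other 4 libraries are the input, the whole-septum RNA of the same groups (2 RS and 2 naive), and they are used here to show where a change in the IP differed from the change in the tissue as a whole. All mice were wild-type C57Bl6J, and the methods give males and females aged 8 to 20 weeks across the study. RS mice were immobilized for 1 h in a flexible plastic cone while naive mice remained in their home cages. The labels place the dissection 1 h after the end of restraint, whereas the methods place it directly after the stress, so the time behind the RS values is not settled. Each library was 1 pool of septa from 4 to 6 mice, precipitated with 4 ug of a polyclonal antibody to phosphorylated ribosomal protein S6 (pS6), and no cell type was selected beforehand. Values are TPM, a length-corrected share of the transcripts of a library, and they carry no read depth. With 2 pools a group, p-values measure the spread between pools only.

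Ribosomal protein S6 is phosphorylated downstream of mTOR and ERK signalling when a neuron is driven, and the antibody then brings down ribosomes from such cells together with the mRNAs on them. The best-known transcripts of driven neurons are the immediate early genes, whose transcription starts within minutes without new protein synthesis through factors such as CREB and SRF that are already bound to DNA. In such a bulk pool, fewer cells of a type and less RNA per cell cannot be told apart. In the IP, less S6 phosphorylation in those cells cannot be told apart from them either.

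RS raised far more transcripts in the IP than it lowered. At an adjusted p under 0.05 (limma across all genes, Benjamini-Hochberg), 285 genes were higher in the RS IP (1.98% of those tested) and 47 were lower (0.327%), so 85.8% of the 332 calls were increases. With the error taken from the 4 IP libraries alone, 152 genes were higher and 23 lower. By at least 2-fold, 80 genes were higher (0.557%) and 11 were lower (0.0766%). The called increases had a median log2 change of 0.67 and reached 6.07, and the called decreases had a median of -0.72 and reached -1.69, whereas the median of all genes was 0.01. The 2 RS libraries both lay above the 2 naive libraries for 25.1% of all genes and both below them for 21.2%, so a lack of overlap alone is common with 2 pools a group. The 2 pools of a group had a median absolute log2 difference of 0.11 in the naive IP and 0.12 in the RS IP. Between the 2 naive IP pools 101 genes were at least 2-fold apart, and 93 between the 2 RS IP pools. Single RS pools against single naive pools gave 128 to 148 genes at least 2-fold higher and 70 to 76 at least 2-fold lower. Calls were most frequent among abundant transcripts, at 3.41% of the 1845 genes with a mean of 100 TPM or more against 1.13% of the 5235 genes under 5 TPM. The calls depend on having both pools. Leaving out 1 of the 4 IP libraries left between 91 and 122 genes higher and between 12 and 15 lower, and 73 of the 285 increases and 5 of the 47 decreases were called without each of the 4 in turn.

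**Figure D1:**
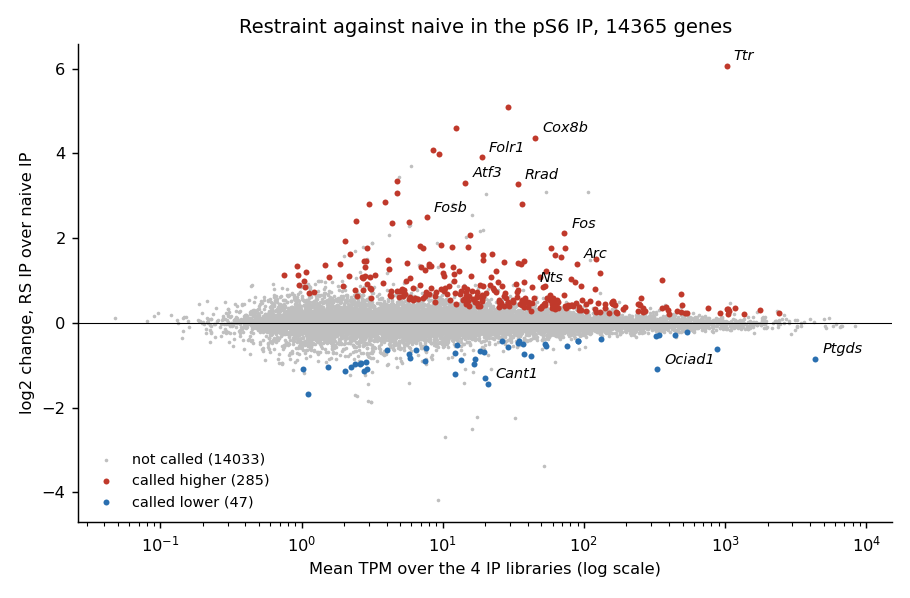
Each point is 1 of 14365 genes, with its mean TPM over the 4 IP libraries on the x axis (log scale) and its log2 change, RS IP over naive IP, on the y axis, on the log2(TPM + 1) scale. The 285 genes called higher (red) reach 6.07 at Ttr, and the 47 called lower (blue) reach -1.69. Grey points far from 0 are genes whose change was not called, with the error estimated from all 8 libraries.

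The immediate early promoters are shown first, because this gene group gave the most calls for its size outside the choroid plexus genes. The sequences are the 250 bases before a RefSeq transcription start (GRCm38.p6) of Fos and of the 3 Nr4a orphan nuclear receptor genes. They are printed 5′ to 3′ on the strand of the gene. For Nr4a1 and Nr4a3 the start used lies inside the span of the gene, which is 101253902 to 101274795 and 48045078 to 48086447. Capitals mark TGACG or its reverse complement CGTCA, the core of the cAMP response element to which CREB binds, searched on both strands and counted also where it lies inside the full palindromic element.
Nr4a1, chr15:101266596-101266845, plus strand: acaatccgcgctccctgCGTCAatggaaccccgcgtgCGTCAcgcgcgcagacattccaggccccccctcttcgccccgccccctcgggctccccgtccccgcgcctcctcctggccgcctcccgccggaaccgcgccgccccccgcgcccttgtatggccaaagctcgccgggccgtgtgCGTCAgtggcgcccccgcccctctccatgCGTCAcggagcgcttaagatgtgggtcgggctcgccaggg
Nr4a2, chr2:57124004-57124253, minus strand: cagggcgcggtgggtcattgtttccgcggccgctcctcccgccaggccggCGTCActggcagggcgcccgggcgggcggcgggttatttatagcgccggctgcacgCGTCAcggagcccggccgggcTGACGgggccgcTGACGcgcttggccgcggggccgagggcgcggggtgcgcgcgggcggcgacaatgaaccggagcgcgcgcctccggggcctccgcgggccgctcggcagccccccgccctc
Nr4a3, chr4:48045055-48045304, plus strand: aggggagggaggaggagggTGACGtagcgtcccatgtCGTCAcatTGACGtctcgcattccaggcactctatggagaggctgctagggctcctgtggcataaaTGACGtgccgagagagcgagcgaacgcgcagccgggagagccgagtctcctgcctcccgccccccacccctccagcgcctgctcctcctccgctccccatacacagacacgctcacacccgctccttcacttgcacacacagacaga
Fos, chr12:85473640-85473889, plus strand: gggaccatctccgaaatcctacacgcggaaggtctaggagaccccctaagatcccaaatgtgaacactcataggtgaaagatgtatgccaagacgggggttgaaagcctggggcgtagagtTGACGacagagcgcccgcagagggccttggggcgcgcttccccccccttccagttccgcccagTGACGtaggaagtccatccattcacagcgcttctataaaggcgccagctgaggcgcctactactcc
The 3 Nr4a windows hold 4 cores each and the Fos window holds 2. Promoter entries were found for 20 of the 26 immediate early transcription factor genes tested, 29 entries in all, and some entries of Egr2, Csrnp1 and Maff overlap or belong to the same gene. The search covered the 250 bases before the start in every entry. The core occurred in at least 1 entry of 14 of these 20 genes and of 19.8% of all 27025 genes with an entry. At least 3 cores occurred in 3 of the 29 windows, the Nr4a windows, and in 0.688% of all 32851 windows. The full element was found in 1 of the 20 genes, Maff, against 1.77% of all genes, and the CArG box to which SRF binds was found in 2, Egr2 and Srf, against 1.62% of all genes. These are matches of letters and not measured binding.

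Immediate early transcription factors gave the largest number of called genes of any list. Of 29 listed genes 26 passed the filter of 1 TPM in at least 2 libraries, and 18 of them rose. No member was called lower by limma, nor was any lower at an unadjusted p under 0.05 (0 of 26), while 22 of 26 (84.6%) were higher at that unadjusted level against 10.1% of all genes. The list had a median log2 change of 1.09 against 0.01 for all genes. Fos, the AP-1 subunit used to map neuronal activity, was at 24.4 and 28.8 TPM in the naive IP and at 120.0 and 117 TPM in the RS IP, a log2 change of 2.12 ± 0.09 (SE; limma adjusted p = 4.30e-05). Fosb, its paralog, was at 1.88 and 1.38 TPM in the naive IP and 13.7 and 13.9 TPM in the RS IP, a log2 change of 2.50 ± 0.18 (limma adjusted p = 3.52e-04). For both genes the lower RS pool was several times above the higher naive pool. Junb, an AP-1 partner, went from 33.96 and 34.5 TPM to 97.6 and 107 TPM, a log2 change of 1.55 ± 0.07 (limma adjusted p = 5.82e-05). Fosl2, another Fos family gene, was at 4.71 and 2.898 TPM and then at 15.1 and 16.5 TPM, a log2 change of 1.83 ± 0.19 (limma adjusted p = 0.0024).

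Atf3, a stress-induced bZIP factor, had the steepest rise of the group. It was near the filter in the naive IP, at 1.46 and 2.23 TPM, and reached 25.5 and 28.5 TPM in the RS IP, a log2 change of 3.31 ± 0.15 (limma adjusted p = 4.30e-05). The 3 Nr4a genes, whose promoters are printed above, all rose. Nr4a1 was the abundant one, at 32.5 and 32.5 TPM in the naive IP and 107 and 120.4 TPM in the RS IP, a log2 change of 1.77 ± 0.08 (limma adjusted p = 4.30e-05). Nr4a2 was at 2.42 and 3.02 TPM and then 11.6 and 11.8 TPM, a log2 change of 1.78 ± 0.11 (limma adjusted p = 2.25e-04). Nr4a3 stayed low, at 0.3601 and 0.361 TPM in the naive IP and 1.85 and 1.58 TPM in the RS IP, and its log2 change of 0.99 ± 0.16 (limma adjusted p = 0.0194) understates the ratio because 1 TPM was added before the logarithm. It was the only Nr4a gene whose call was lost when any single IP library was left out, with limma adjusted p up to 0.129.

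Of the 8 members that were not called, 6 had a log2 difference above 0 and 4 of these, Jun (0.37), Jund (0.32), Ier2 (0.61) and Klf10 (0.96), were higher at an unadjusted p under 0.05. Npas4, a factor induced selectively by calcium entry in neurons and chosen here after its values were seen, was at 7.21 and 8.902 TPM in the naive IP and 7.19 and 8.69 TPM in the RS IP, and its log2 difference was -0.02 ± 0.21 (limma adjusted p = 0.982). The pools of the 2 groups overlapped for this gene. The log2 differences of the others were 0.26 for Srf, 0.16 for Ier3 and -0.07 for Klf6. Of the 18 members that rose, 13 stayed called without each IP library in turn, and 13 to 15 members were called when 1 library was left out.

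**Figure D2:**
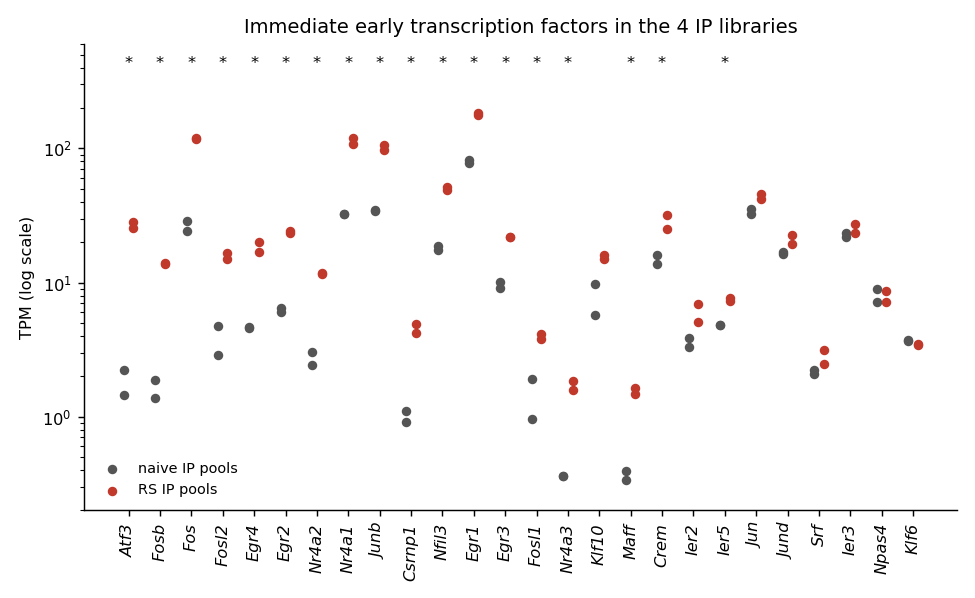
TPM (y axis, log scale) of the 26 tested immediate early transcription factors in the 2 naive IP pools (grey) and the 2 RS IP pools (red), ordered by log2 change, with a star over the 18 called higher. The RS pools stand clear of the naive pools from Atf3 to Maff, and the pools of Npas4 lie on top of each other at about 7 to 9 TPM.

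Of 19 tested effector genes that act downstream of neuronal activity, 8 rose and 0 fell in limma (0 lower also at an unadjusted p under 0.05), with a median log2 change of 0.39. All 19 had a log2 change above 0, and in 17 both RS pools lay above both naive pools, against 25.1% of all genes. Arc, which regulates AMPA receptor endocytosis at synapses, was at 49.9 and 46.7 TPM in the naive IP and 122 and 136 TPM in the RS IP, a log2 change of 1.40 ± 0.09 (limma adjusted p = 2.07e-04). Arc was also the 1 effector called without each IP library in turn. Gpr3, a constitutively active receptor that raises cAMP, went from 3.66 and 3.53 TPM to 11.001 and 9.83 TPM, and Cyr61, a secreted matricellular protein, from 7.201 and 5.53 TPM to 18.3 and 16.5 TPM. Their log2 changes were 1.31 ± 0.16 for Gpr3 (limma adjusted p = 0.00561, and 0.0645 without RS pool 1) and 1.33 ± 0.17 for Cyr61 (limma adjusted p = 0.00692, up to 0.0696 without naive pool 2 or either RS pool). Plk2, a kinase of synaptic scaling, rose from a high level, 88.8 and 90.1 TPM, to 131 and 128 TPM, a log2 change of 0.53 ± 0.06 (limma adjusted p = 0.00519, and 0.054 without RS pool 1).

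Inhibitors of ERK signalling and growth arrest genes moved the same way. In the ERK feedback list 4 of 12 tested genes rose and 0 fell in limma (1 lower at an unadjusted p under 0.05), with a median of 0.36. Dusp1, a phosphatase that inactivates MAP kinases, went from 28.7 and 32.9 TPM to 65.5 and 67.9 TPM, a log2 change of 1.09 ± 0.08 (limma adjusted p = 4.49e-04). Dusp14, another dual-specificity phosphatase, was the most abundant of them and went from 363 and 383 TPM to 608 and 598 TPM, a log2 change of 0.69 ± 0.06 (limma adjusted p = 6.05e-04). Errfi1, an inhibitor of the EGF receptor, went from 24.5 and 25.8 TPM to 51.3 and 48.7 TPM, a log2 change of 0.96 ± 0.07 (limma adjusted p = 4.65e-04). The fourth, Dusp5, was at 3.49 and 3.44 TPM and then 7.74 and 8.85 TPM and lost its call when any single IP library was left out, with limma adjusted p up to 0.161.

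In the growth arrest and RGK list 5 of 11 tested genes rose, and all 5 stayed called without each IP library in turn, while 0 fell (0 lower also at an unadjusted p under 0.05 in limma). Rrad encodes a small GTP-binding protein of the RGK family that restrains voltage-gated calcium channels in muscle. It was at 4.41 and 6.83 TPM in the naive IP and 63.3 and 60.9 TPM in the RS IP, a log2 change of 3.28 ± 0.21 (limma adjusted p = 2.14e-04). Gadd45b, which is tied to activity-induced DNA demethylation, went from 30.6 and 30.6 TPM to 88.6 and 101 TPM, a log2 change of 1.60 ± 0.09 (limma adjusted p = 1.18e-04). Gadd45g, its paralog, went from 67.5 and 64.99 TPM to 118 and 128 TPM, a log2 change of 0.88 ± 0.07 (limma adjusted p = 5.62e-04). Btg2, an antiproliferative cofactor, went from 13.2 and 14.5 TPM to 30.7 and 29.95 TPM, a log2 change of 1.08 ± 0.08 (limma adjusted p = 3.02e-04).

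Restraint releases corticosterone, which acts on transcription through the glucocorticoid receptor, and known targets of that receptor also rose in the IP. Of 18 tested glucocorticoid-responsive genes 7 rose and 0 fell in limma (2 lower at an unadjusted p under 0.05), with a median log2 change of 0.43. Sgk1, a kinase that glucocorticoids induce (chromosome 10, 21882184 to 21999903 in GRCm38.p6), went from 27.9 and 23.9 TPM in the naive IP to 88.7 and 92.5 TPM in the RS IP, a log2 change of 1.77 ± 0.08 (limma adjusted p = 4.30e-05). Tsc22d3, which encodes the glucocorticoid-induced leucine zipper protein, went from 233 and 235 TPM to 494 and 459 TPM, a log2 change of 1.02 ± 0.07 (limma adjusted p = 2.27e-04). Cdkn1a, a cell cycle inhibitor, went from 13.2 and 15.3 TPM to 38.5 and 41.99 TPM, a log2 change of 1.44 ± 0.11 (limma adjusted p = 4.16e-04), and Nfkbia, the inhibitor of NF-kB, from 7.68 and 6.42 TPM to 16.8 and 16.8 TPM, a log2 change of 1.15 ± 0.10 (limma adjusted p = 8.67e-04). These 4 and Errfi1 stayed called without each IP library in turn. Several genes of this list also respond to neuronal activity, so the list does not separate the hormone from firing.

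Fkbp5 and Klf9, classical glucocorticoid targets, rose in the tissue and were not called in the IP. Fkbp5, a chaperone that lowers glucocorticoid receptor affinity, was at 12.4 and 12.7 TPM in the naive IP and 9.37 and 9.86 TPM in the RS IP, a log2 difference of -0.35 ± 0.09 that did not pass the test (limma adjusted p = 0.108). In the input it was at 20.5 and 19.1 TPM in naive and 31.1 and 27.4 TPM in RS mice, a log2 change of 0.54 ± 0.09 (limma adjusted p = 0.00562). Klf9, a Krüppel-like factor induced by the receptor, was at 32.4 and 26.97 TPM and 28.2 and 31.03 TPM in the IP, where the groups overlapped, and rose in the input from 26.1 and 24.2 TPM to 67.4 and 58.6 TPM. The difference between the IP change and the input change was -0.89 ± 0.13 for Fkbp5 (limma adjusted p = 0.0187) and -1.29 ± 0.16 for Klf9 (limma adjusted p = 0.0141). Both genes were chosen after their values were seen, and both differences lost their call without single libraries, with limma adjusted p up to 0.0743 and 0.0653.

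Few clock and chaperone genes were called in the IP, where 1.98% of all genes were called higher. Of 18 circadian clock genes 2 rose: Per1, which neuronal activity and glucocorticoids both induce, went from 2.25 and 2.26 TPM to 5.04 and 5.48 TPM, and Bhlhe40, a repressor of the clock, from 25.6 and 26.2 TPM to 38.6 and 35.6 TPM. Neither was called when any single IP library was left out (limma adjusted p up to 0.0858 and 0.0915). Among 20 heat shock and cytosolic chaperone genes, Dnajb1, an HSP40 cochaperone, went from 57.7 and 58.3 TPM to 108 and 120.1 TPM, a log2 change of 0.96 ± 0.06 (limma adjusted p = 2.25e-04). Hsp90ab1 was the other gene called, from 1005 and 952 TPM to 1143 and 1107 TPM, but it lost the call under 11 of 18 alternatives, with limma adjusted p up to 0.249. Of the 20 chaperone genes 18 had a log2 change above 0, with a median of 0.20 against 0.01 for all genes. At an unadjusted limma p under 0.05, 10 of the 20 were higher (50%, against 10.1% of all genes) and 1 lower. At that level 4 of the 18 clock genes were higher (22.2%) and 1 lower. None of 18 endoplasmic reticulum stress genes passed the test in the IP in limma, where 3 had an unadjusted p under 0.05.

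Neuropeptides mark the cell types of the septum. Of 27 tested peptide genes 4 rose in the RS IP (14.8%, against 1.98% of all genes) while 1 fell (0.327% of all genes). In all, 22 of the 27 had a log2 change above 0. At an unadjusted limma p under 0.05, 12 were higher (44.4%, against 10.1% of all genes) and 2 lower (7.41%, against 6.17%). Nts, which encodes neurotensin (chromosome 10, 102481756 to 102490418 in GRCm38.p6), was at 31.4 and 29.8 TPM in the naive IP and 61.8 and 49.7 TPM in the RS IP, a log2 change of 0.84 ± 0.11 (limma adjusted p = 0.00741). In the input Nts was at 25.6 and 24.9 TPM in naive and 19.8 and 21.6 TPM in RS mice, a log2 difference of -0.28 ± 0.11 that did not pass the test (limma adjusted p = 0.0881). The change in the IP exceeded that in the input by 1.11 ± 0.15 (limma adjusted p = 0.0169). Without naive pool 2 the limma adjusted p of the IP change was 0.0659, and the difference from the input lost its call in 6 of 17 alternatives, with limma adjusted p up to 0.0746. The 2 RS pools were further apart for Nts than the 2 naive pools, and both lay above both naive pools.

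Crh, which encodes corticotropin-releasing hormone, went from 10.4 and 9.14 TPM to 18.9 and 18.1 TPM in the IP, a log2 change of 0.86 ± 0.10 (limma adjusted p = 0.00519, and 0.0565 without RS pool 1). Pmch, the precursor of melanin-concentrating hormone, and Prok2, which encodes prokineticin 2, were both near 1 TPM or below in the naive IP. Pmch was at 0.3802 and 0.794 TPM and then 3.07 and 3.21 TPM, and Prok2 at 0.829 and 0.471 TPM and then 2.601 and 2.37 TPM. Their calls were lost without RS pool 2 for Pmch (limma adjusted p = 0.0511) and without naive pool 2 or either RS pool for Prok2 (limma adjusted p up to 0.0878). Pdyn, the precursor of dynorphin and the 1 peptide gene that fell, was at 158 and 143 TPM in the naive IP and 115 and 115 TPM in the RS IP, a log2 change of -0.38 ± 0.06 (limma adjusted p = 0.0235). Its call was lost in 7 of 18 alternatives, with limma adjusted p up to 0.145.

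The abundant septal peptides changed little in the IP. Sst (somatostatin) was at 839.9 and 815 TPM in the naive IP and 888 and 913 TPM in the RS IP, a log2 difference of 0.12 ± 0.06 (limma adjusted p = 0.359). Cartpt, the CART peptide precursor, was at 237 and 226 TPM and 262 and 258 TPM, a log2 difference of 0.17 ± 0.08 (limma adjusted p = 0.351). Penk, the enkephalin precursor, was at 1859 and 1817 TPM and 2012 and 2017 TPM, a log2 difference of 0.13 ± 0.03 (limma adjusted p = 0.0823). For all 3 both RS pools were above both naive pools, but the size of the difference did not pass the test. In the input Cartpt fell by 0.71 on the log2 scale, from 167 and 159 TPM to 91.1 and 108 TPM (limma adjusted p = 0.0015), and Penk rose from 1373 and 1359 TPM to 1837 and 1841 TPM (limma adjusted p = 6.12e-04). Over the 27 peptide genes the median log2 change was 0.17 in the IP and -0.27 in the input, against 0.01 and 0.13 for all genes. The input change followed transcript length, and its median was -0.29 for the class of shortest transcripts. After correction for length and GC content the input change of Sst became 0.11, whereas the input decrease of Cartpt kept its call under every alternative. The part of length in the input median of the peptide genes was not tested.

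Few peptide receptor, granule and RGS genes were called in the IP, where 1.98% of all genes were called higher. Of 31 peptide receptor genes 3 rose: Sstr2, a somatostatin receptor, from 49.1 and 57.4 TPM to 108 and 112 TPM, with Galr1, a galanin receptor, and Ntsr2, a neurotensin receptor found largely on astrocytes. Galr1 went from 1.704 and 1.77 TPM to 3.66 and 3.73 TPM and Ntsr2 from 105 and 106 TPM to 142 and 150.2 TPM. Sstr2 lost its call without naive pool 1 or either RS pool (limma adjusted p up to 0.0771), Galr1 without any 1 of the IP libraries (up to 0.147), and Ntsr2 without either naive pool or RS pool 2 (up to 0.0702). Glp1r, the receptor of glucagon-like peptide 1, was at 11.9 and 12.6 TPM and 9.15 and 11.99 TPM, a log2 difference of -0.20 ± 0.17 (limma adjusted p = 0.642), and its groups overlapped. Mc3r, a melanocortin receptor, was at 9.15 and 11.2 TPM and 6.85 and 7.39 TPM, a log2 difference of -0.45 ± 0.19 (limma adjusted p = 0.279). Scg2, a granin of dense-core granules, rose from 139.6 and 145 TPM to 195 and 188 TPM as the 1 of 14 granule genes called, and lost its call without naive pool 1 or either RS pool (limma adjusted p up to 0.0725). At an unadjusted limma p under 0.05, 6 of the 14 granule genes were higher (42.9%, against 10.1% of all genes) and 0 lower. Both RS pools lay above both naive pools for 10 of the 14 (25.1% of all genes) and below them for 2 (21.2%). Rgs2 and Rgs4, which shorten G protein signals, were the 2 of 17 RGS genes called, Rgs2 from 62.4 and 68.5 TPM to 90.3 and 85.5 TPM and Rgs4 from 134 and 132 TPM to 196 and 183 TPM, and lost their calls, Rgs2 without any 1 of the IP libraries (limma adjusted p up to 0.135) and Rgs4 without either naive pool or RS pool 1 (up to 0.0645).

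**Figure D3:**
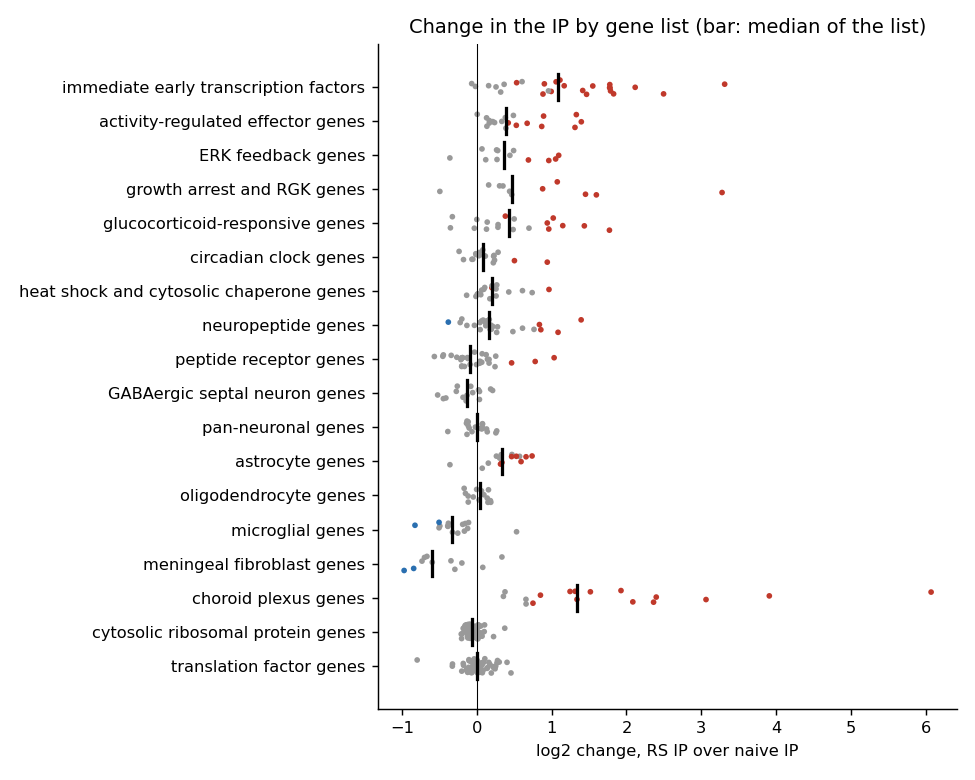
Log2 change, RS IP over naive IP (x axis), of every tested member of 18 gene lists (y axis), with members called higher in red, called lower in blue and not called in grey, and the median of each list as a black bar. The medians stand at 1.34 for choroid plexus genes and 1.09 for immediate early transcription factors, near 0 for pan-neuronal, oligodendrocyte and translation factor genes, and at -0.59 for meningeal fibroblast genes.

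The largest called increase was that of Ttr, a gene of the choroid plexus, the epithelium that makes cerebrospinal fluid and that borders the septum in the ventricle. Of 17 tested choroid plexus genes 13 rose, with a median of 1.34, and 0 fell in limma (0 lower also at an unadjusted p under 0.05). Ttr, which encodes the thyroid hormone carrier transthyretin, was at 29.03 and 29.1 TPM in the naive IP and 2009 and 2029 TPM in the RS IP, a log2 change of 6.07 ± 0.10 (limma adjusted p = 1.43e-07). It rose in the input as well, from 7.62 and 9.32 TPM to 259 and 309 TPM, a log2 change of 4.91 ± 0.10 (limma adjusted p = 7.60e-07). Folr1, a folate receptor of this epithelium, went from 1.86 and 1.11 TPM to 39.96 and 32.3 TPM in the IP, a log2 change of 3.91 ± 0.25 (limma adjusted p = 2.18e-04). Enpp2, which makes lysophosphatidic acid and is expressed by oligodendrocytes too, went from 63.04 and 62.7 TPM to 184 and 179.8 TPM, a log2 change of 1.52 ± 0.07 (limma adjusted p = 4.30e-05). Kcne2, a potassium channel subunit of the epithelium, was at 0.0915 and 0.387 TPM and then 9.72 and 8.86 TPM, a log2 change of 3.06 ± 0.18 (limma adjusted p = 1.36e-04).

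The summed level of the 19 choroid plexus genes was 123.3 to 124.6 TPM in the naive IP and 2333 to 2342 TPM in the RS IP, and 136 to 146 TPM against 522 to 577 TPM in the input. Ttr carried most of the RS sum. Without Ttr the other 18 genes summed to 94.1 to 95.5 TPM in the naive IP and 313 to 323 TPM in the RS IP, and to 127 to 139 TPM against 263 to 268 TPM in the input. None of the 19 was at 0 in all 4 IP libraries. The sum moved with the condition in both pools of each group. More choroid plexus in the RS dissections, more of these RNAs per cell and, in the IP, more S6 phosphorylation in these cells cannot be told apart. Of the 13 called genes, 6 stayed called without each IP library in turn. The other large increases outside the activity lists were named by size, and whether they come from choroid plexus was not tested. Cox8b, a cytochrome c oxidase subunit of heart and muscle, went from 2.08 and 4.79 TPM to 85.3 and 87.1 TPM (limma adjusted p = 0.00846, up to 0.0782 without naive pool 1 or either RS pool). Defb11, a beta-defensin gene, was at 0.528 and 0 TPM in the naive IP and at 18.6 and 18.4 TPM in the RS IP, and at 0 in 3 of the 4 input libraries. Smim22, which encodes a small membrane protein, went from 1.58 and 0.805 TPM to 11.6 and 8.98 TPM (limma adjusted p = 0.00561, and 0.0655 without RS pool 1), and Calml4, a calmodulin-like gene of the choroid plexus list, from 5.89 and 4.77 TPM to 26.4 and 25.1 TPM (limma adjusted p = 0.00476, up to 0.054 without either RS pool). Apold1, an activity-inducible gene of endothelial cells, went from 2.28 and 2.74 TPM to 11.4 and 11.1 TPM, a log2 change of 1.81 ± 0.12 (limma adjusted p = 2.30e-04).

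Markers of the other cells of the septum and its borders moved less. The 16 GABAergic septal genes that define the tissue summed to 449 to 454 TPM in the naive IP and 462 to 467 TPM in the RS IP, with 0 of them at 0 throughout. Of the 15 that were tested, 10 had a log2 difference below 0 (median -0.13). In 9 of them (60%) both RS pools lay below both naive pools, against 21.2% of all genes. At an unadjusted limma p under 0.05, 5 were lower (33.3%, against 6.17% of all genes) and 2 higher (13.3%, against 10.1%). Slc32a1, the vesicular GABA transporter among them, was at 7.097 and 7.79 TPM in the naive IP and 5.83 and 6.26 TPM in the RS IP, a log2 difference of -0.26 ± 0.12 (limma adjusted p = 0.349). None of the 15 GABAergic septal genes, the 18 pan-neuronal genes or the 8 glutamatergic genes was called by limma, where 7, 5 and 2 of them had an unadjusted p under 0.05. The summed pan-neuronal level was 9171 to 9214 TPM in the naive IP and 9027 to 9036 TPM in the RS IP. Mbp, the myelin basic protein gene, was at 1256 and 1233 TPM and 1271 and 1329.8 TPM, and 0 of the 14 oligodendrocyte genes were called by limma (5 at an unadjusted p under 0.05), with a median of 0.05. Among 15 astrocyte genes 7 rose, with a median of 0.34, and their summed level went from 1915 to 1924 TPM in the naive IP to 2432 to 2438 TPM in the RS IP. Aldoc, a glycolytic enzyme of astrocytes, went from 911 and 898 TPM to 1146 and 1138 TPM, a log2 change of 0.34 ± 0.04 (limma adjusted p = 0.00296). Gjb6, which encodes connexin 30, went from 45.2 and 50.05 TPM to 75.1 and 69.4 TPM, and Slc1a2, the glutamate transporter GLT-1, from 50.8 and 61.3 TPM to 85.4 and 91.9 TPM. With 1 IP library left out the astrocyte count was between 1 and 4. Both Gjb6 and Slc1a2 lost their calls without naive pool 1 or either RS pool, with limma adjusted p up to 0.0965 and 0.113.

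Meningeal and microglial genes leaned the other way in the IP. Of 11 tested meningeal fibroblast genes 2 fell, with a median of -0.59, and 0 rose in limma (1 higher at an unadjusted p under 0.05). Both that fell stayed called without each IP library in turn. Ptgds, which makes prostaglandin D2 and is among the most abundant transcripts of the leptomeninges, went from 5655 and 5477 TPM to 3058 and 3148 TPM, a log2 change of -0.84 ± 0.04 (limma adjusted p = 5.82e-05). Aldh1a2, a retinoic acid synthesizing enzyme of the meninges, went from 23.6 and 21.1 TPM to 10.6 and 11.2 TPM, a log2 change of -0.97 ± 0.09 (limma adjusted p = 0.0019). The summed meningeal level was 5614 to 5806 TPM in the naive IP and 3168 to 3266 TPM in the RS IP, and 1949 to 1958 TPM against 1159 to 1233 TPM in the input. Ptgds made up nearly all of it, and the other 12 genes summed to 137 to 151 TPM in the naive IP and 109 to 118 TPM in the RS IP. Of 15 microglial genes 2 fell, Tyrobp, a signalling adaptor, from 59.1 and 66.1 TPM to 43.9 and 43.8 TPM and Gpr34, a lysophospholipid receptor, from 7.904 and 7.598 TPM to 4.73 and 3.25 TPM. Tyrobp lost its call without naive pool 2 or either RS pool (limma adjusted p up to 0.114) and Gpr34 without either naive pool or RS pool 2 (up to 0.173). The summed microglial level was 358 to 359 TPM in the naive IP and 294 to 297 TPM in the RS IP. In the input it was 341 to 358 TPM in naive and 370 to 381 TPM in RS mice. There 3 of the 15 genes were called higher and 1 lower by limma. The summed endothelial level was 35.7 to 40.6 TPM in the naive IP and 23.6 to 28.4 TPM in the RS IP. None of the 4 tested endothelial genes was called by limma in the IP (2 were lower at an unadjusted p under 0.05). For all 4 both RS pools lay below both naive pools (21.2% of all genes), with a median log2 difference of -0.57. In the input the endothelial sum was 43.9 to 44.0 TPM in naive and 21.7 to 26.9 TPM in RS mice. There 2 of the 4 genes were called lower by limma. The part that these borders and cell types had in the gene changes above was not tested.

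**Figure D4:**
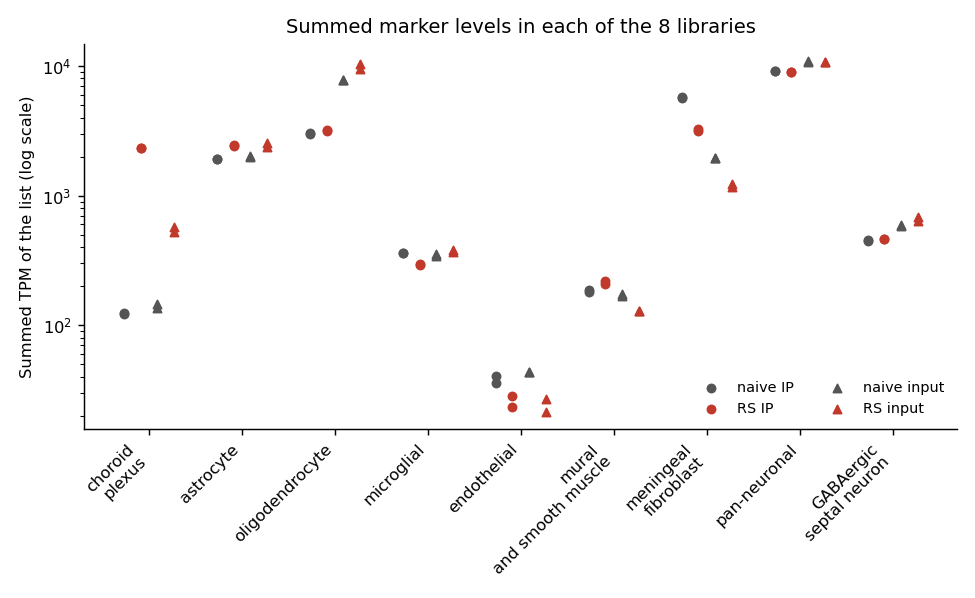
Summed TPM of each marker list (y axis, log scale) in each of the 8 libraries, with IP libraries as circles, input libraries as triangles, naive in grey and RS in red, so that every list has 2 points per group. The choroid plexus sum rises from 123.3 to 124.6 TPM in the naive IP to 2333 to 2342 TPM in the RS IP, the meningeal sum falls from 5614 to 5806 TPM to 3168 to 3266 TPM, and the pan-neuronal sum lies between 9027 and 9214 TPM in the 4 IP libraries.

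No list held more than 2 of the 47 decreases. The lists with 2 were the meningeal fibroblast genes (of 11 tested) and the microglial genes (of 15), against 0.327% of all genes called lower. Besides Ptgds and Aldh1a2, 2 of the 12 largest stayed called under all 18 alternatives. Zfp146, a zinc finger protein gene, went from 29.3 and 28.1 TPM to 11.98 and 10.1 TPM, a log2 change of -1.31 ± 0.12 (limma adjusted p = 0.00101). Ly6a, a surface antigen of endothelial cells, went from 16.5 and 17.9 TPM to 7.46 and 6.48 TPM, a log2 change of -1.20 ± 0.12 (limma adjusted p = 0.0021). Gnrh1, which encodes gonadotropin-releasing hormone and marks scattered neurons of the septum and preoptic area, went from 46.2 and 48.3 TPM to 29.7 and 26.5 TPM, a log2 change of -0.73 ± 0.09 (limma adjusted p = 0.00523, up to 0.0515 without naive pool 2 or RS pool 2). It fell in the input too, from 38.1 and 35.1 TPM to 20.3 and 18.7 TPM (limma adjusted p = 0.0012), a call that was lost after correction for length and GC content (limma adjusted p up to 0.0628).

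The remaining decreases of the 12 depended on single pools. Glra2, a glycine receptor subunit, was at 22.3 and 22.1 TPM in the naive IP and 13.4 and 10.4 TPM in the RS IP. Adora2a, an adenosine receptor of striatopallidal neurons, was at 49.1 and 58.5 TPM and 30.8 and 30.8 TPM, and Slc22a8, an organic anion transporter of brain barriers, at 16.9 and 18.4 TPM and 8.99 and 9.41 TPM. All 3 calls were lost with any 1 IP library left out, where the limma adjusted p reached 0.187, 0.19 and 0.167. Adora2a was the 1 gene called of 10 tested striatal neuron genes, and 6 of the 10 had a log2 difference above 0 (median 0.04). Cant1, a calcium-activated nucleotidase, had naive pools that were themselves apart, at 37.3 and 25.03 TPM, against 10.4 and 10.9 TPM in the RS IP (limma adjusted p = 0.0113, up to 0.0886 without naive pool 1 or either RS pool). Ociad1, an endosomal and mitochondrial protein gene, showed the same spread, at 520.0 and 378 TPM in the naive IP and 209.6 and 206 TPM in the RS IP (limma adjusted p = 0.00549, up to 0.0586 without either RS pool).

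Several large gene groups had no called member in the IP. Of all genes 1.98% were called higher and 0.327% lower, so lists of this size would hold few calls at that share. None of the 85 cytosolic ribosomal protein genes, 78 mitochondrial ribosomal protein genes, 66 translation factor genes, 21 mTOR pathway genes or 31 splicing factor genes was called by limma, and the medians of these lists lay between -0.06 and 0.06. At an unadjusted p under 0.05 the same lists held 6, 13, 10, 4 and 1 genes. All 13 mitochondrial ribosomal protein genes among them were lower (16.7% of the 78, against 6.17% of all genes), as were 5 of the 6 cytosolic ones. Both RS pools lay below both naive pools for 43 of the 85 cytosolic (50.6%) and 27 of the 78 mitochondrial ribosomal protein genes (34.6%), against 21.2% of all genes. These shifts were small, with medians of -0.06 and -0.04. In the input, by contrast, 79 of the 85 ribosomal protein genes were called lower, with a median of -0.68, and for 60 of them the IP change less the input change was called above 0. The input change followed transcript length, with a median of -0.29 for the shortest 1 of 10 length classes and 0.28 for the longest, whereas the same medians in the IP were -0.04 and 0.04. None of the 28 sodium and calcium channel genes, 15 ionotropic glutamate receptor genes, 27 monoamine and muscarinic receptor genes or 22 vesicle fusion genes was called in the IP by limma, where 7, 2, 3 and 4 had an unadjusted p under 0.05. Among 74 potassium channel genes the 2 that rose were Kcne2 and Kcnj13, both of which are in the choroid plexus list, and Kcnj13, at 1.62 and 0.804 TPM and then 4.67 and 4.15 TPM, lost its call without naive pool 2 or either RS pool (limma adjusted p up to 0.112). Other lists gave 1 call each in a direction: Psmd2 of 37 proteasome genes, Grm3 of 9 metabotropic glutamate and GABA-B receptor genes, Col9a3 of 13 collagen and laminin genes and Zfp954 of 310 zinc finger protein genes rose, and Vtn of 7 mural genes fell. Their log2 changes were 0.26, 0.38, 1.11, 0.61 and -0.48, and each lost its call without any 1 of the IP libraries, with limma adjusted p of 0.13 to 0.235 at the highest.

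The increases in the IP were partly those of the whole septum. In the input 20.3% of all genes were called higher and 8.21% lower, and 194 of the 285 genes higher in the IP (68.1%) were also called higher in the input, which is 6.65% of the genes called higher in the input. Of the 47 genes lower in the IP, 21 (44.7%) were also called lower in the input, which is 1.78% of the genes called lower there. In the opposite direction, 6 of the 285 were called lower in the input, and 4 of the 47, Cant1, Pdyn, Slc38a7 and Tsc22d1, were called higher there. The difference between the 2 changes was called above 0 for 3.29% of all genes and below 0 for 3.46%, and among the 285 it was called above 0 for 70 genes and below 0 for 3 (Scd2, Sgk1 and Tubb4a). Among the 47 it was called below 0 for 17 and above 0 for 1 (Meig1). Of these 91 genes, 7 kept the call of a difference under all 17 alternatives that held the input libraries, and Acta2, Cox6b2 and Tsc22d1 were among them.

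Activity genes differed in how much of their rise the input shared. For Fos the input went from 35.3 and 33.3 TPM to 86.1 and 83.3 TPM, a log2 change of 1.28 ± 0.09, and the IP change exceeded it by 0.84 ± 0.12 (limma adjusted p = 0.0181). For Atf3 the excess in the IP was 1.22 ± 0.21 (limma adjusted p = 0.0224), for Gadd45b 0.97 ± 0.13 (limma adjusted p = 0.0167), and for Btg2 0.68 ± 0.11 (limma adjusted p = 0.0195). These 4 excesses lost their calls in 6 to 8 of 17 alternatives, single libraries left out among them, with limma adjusted p up to 0.0829, 0.0902, 0.0681 and 0.0874. Nr4a1 rose by 1.39 ± 0.08 in the input, and the difference of 0.39 ± 0.11 did not pass the test (limma adjusted p = 0.0707). Errfi1, Tsc22d3 and Nfkbia rose by 1.07, 0.90 and 1.24 in the input, and their differences of -0.11 ± 0.10, 0.12 ± 0.09 and -0.09 ± 0.14 did not pass the test either.

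Sgk1 went the other way, with a larger change in the whole tissue than in the IP. Its input level was 54.2 and 52.1 TPM in naive and 397 and 381 TPM in RS mice, a log2 change of 2.85 ± 0.08 (limma adjusted p = 3.12e-06), and the IP change was smaller by 1.08 (IP less input -1.08 ± 0.11, limma adjusted p = 0.00888, and 0.0506 without naive input pool 2). Sgk1 is also known as a glucocorticoid-induced gene of oligodendrocytes, whose summed markers stood at 2964 to 3203 TPM in the IP libraries and 7739 to 10281 TPM in the input libraries, and their part in this difference was not tested.

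A few genes moved in opposite directions in the IP and in the input. Acta2, the actin of smooth muscle, rose in the IP from 15.6 and 17.1 TPM to 29.9 and 28.9 TPM (limma adjusted p = 0.0024) and fell in the input from 19.8 and 20.1 TPM to 13.8 and 14.9 TPM (limma adjusted p = 0.00728), and the difference of 1.26 ± 0.12 held in every alternative (limma adjusted p = 0.00521). Cox6b2, a testis-type cytochrome c oxidase subunit, rose in the IP from 20.01 and 15.7 TPM to 28.4 and 31.7 TPM and fell in the input from 11.9 and 10.9 TPM to 4.72 and 4.68 TPM, with a difference of 1.85 ± 0.18 (limma adjusted p = 0.00604) that held likewise, while its IP call was lost in 8 alternatives (limma adjusted p up to 0.176), naive pool 2 and either RS pool left out among them. Mt2, a metallothionein, was at 329 and 329 TPM and 409 and 449 TPM in the IP and at 214 and 207 TPM and 159 and 182 TPM in the input. Its IP call (limma adjusted p = 0.0391) was lost in 11 of 18 alternatives, with any 1 IP library left out among them (up to 0.216), and the input change turned to 0.17 after correction for length and GC content. Slc38a7, an amino acid transporter, fell in the IP from 12.4 and 7.797 TPM to 4.66 and 4.92 TPM (limma adjusted p = 0.0443, up to 0.184 without naive pool 1 or either RS pool) and rose in the input from 8.73 and 9.103 TPM to 23.9 and 23.6 TPM (limma adjusted p = 0.00231).

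**Figure D5:**
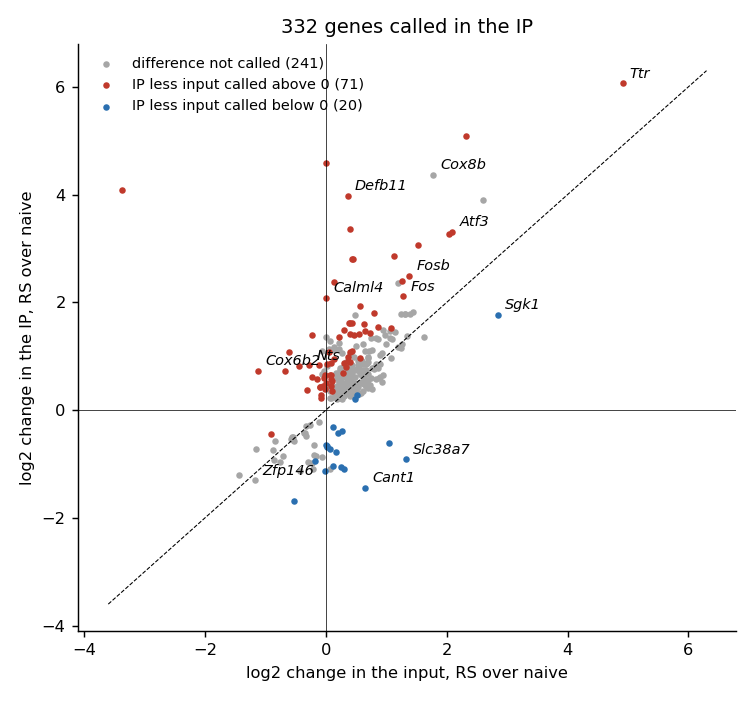
Log2 change RS over naive in the input (x axis) and in the IP (y axis) of the 332 genes called in the IP, coloured by the test of the difference between the 2 changes, with the dashed line at equal change. Ttr lies at 4.91 and 6.07, Sgk1 lies below the line at 2.85 and 1.77, and Cant1 and Slc38a7 lie at negative IP and positive input changes.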

How the data were processed

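Lateral septa were pooled, pS6 ribosomes were precipitated, and input and IP RNA (RIN above 8) were sequenced. The deposited tables hold values per gene symbol as the authors computed them. They are named as FPKM, but every library sums to the same fixed total, as TPM do, so they were taken as TPM. The extract protocol speaks of 3 pools per group, and 2 per group were analysed here. The processing notes name STAR, DESeq2 and mm10, the methods name TopHat and Cufflinks, and which made the deposited TPM columns is not stated. Depth is unknown, so no counting intervals were given. Of 24972 entries, 26 turned into dates were left out. Genes at 1 TPM or more in at least 2 of 8 libraries were fitted as 4 group means with limma 3.58.1 (R 4.3.3) on log2(TPM + 1), a scale that understates changes of low genes, with a mean-variance trend (4 residual and 3.92 prior degrees of freedom). All p-values are two-sided and were adjusted by the Benjamini-Hochberg method across 14365 genes, and the difference between the IP and the input change was a contrast of the same fit. Named genes were a set of 12 genes named in every case, the 12 largest called changes each way with a mean of at least 5 TPM and no clone-type symbol, and up to 4 members of each of 48 lists. Nr4a2 and Nr4a3 entered through their promoters. Npas4, Pdyn, Klf9, Fkbp5, and genes named only because a count was 5 or fewer were chosen after their values were seen. The members and lists were chosen with earlier results of these data known. Transcript length and GC content (GENCODE vM21) were found for 99.1% of genes, and positions and promoters are from RefSeq (GRCm38.p6). Alternatives are given in the closing section.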

Additional observations from a re-analysis of the deposited data

Results flagged for a closer look

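The change on restraint was larger or smaller in the IP than in the input for 42 of the genes named above, each by the contrast of the 2 changes in limma at an adjusted p under 0.05. Values are the IP change less the input change on the log2 scale. With 2 pools a group, 39 of the 42 lost this call under at least 1 of 17 alternatives, and the 3 that kept it were Acta2 at 1.26, Cox6b2 at 1.85 and Tsc22d1 at -1.65.

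Among activity and stress genes the IP change was the larger one for Fos (0.84), Fosb (1.11), Atf3 (1.22), Junb (0.68), Rrad (1.23), Gadd45b (0.97), Gadd45g (0.58), Btg2 (0.68), Cdkn1a (0.70), Per1 (0.81), Dusp14 (0.40), Dnajb1 (0.40), Apold1 (1.01), Rgs2 (0.52) and Mt2 (0.69). It was the lower one for Sgk1 (-1.08), Klf9 (-1.29) and Fkbp5 (-0.89). Of the 18 tested genes of the glucocorticoid list, the difference was called above 0 for 4 and below 0 for 3.

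Among peptide genes the difference was above 0 for Nts (1.11), Pmch (1.62), Prok2 (1.04), Cartpt (0.88) and Sst (0.39), and below 0 for Pdyn (-0.65) and Penk (-0.30). For Cartpt and Sst the IP change itself did not pass the test, and the input change was a decrease, which for Sst turned to 0.11 after correction for length and GC content. The difference for Sst lost its call in 11 of 17 alternatives, with limma adjusted p up to 0.825.

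Among choroid plexus and glial genes it was above 0 for Ttr (1.16), Kcne2 (1.53), Calml4 (2.09), Enpp2 (0.43) and Slc1a2 (0.59), and so it was for Defb11 (3.62) and Smim22 (2.24), which belong to no list. The IP change was below the input change for Cant1 (-2.09), Ociad1 (-1.38), Slc38a7 (-2.23) and Adora2a (-0.95). It was also below for Scd2 (-0.24) and Tubb4a (-0.26), and above for Meig1 (0.47).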

How the results depend on the processing

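The 285 increases and 47 decreases in the IP were recounted under 18 alternatives. Fitting the 4 IP libraries alone gave 152 and 23, a robust fit without the trend gave 176 and 29, median-of-ratios scaling gave 71 decreases, correction for length and GC content gave 77, and the 2-fold decreases numbered 22 with a pseudocount of 0.1 and 5 with a filter at 5 TPM. With 1 library left out, where its partner was assumed to vary like the other groups, increases ranged from 91 to 289 and decreases from 12 to 73, and 2-fold decreases from 6 to 12. Of the 285 increases, 70 were called under every alternative. The replicate numbers do not pair the IP pools (correlation of deviations across genes -0.05), and a replicate block gave 200 increases and 26 decreases. A block by pool, added after seeing the data, changed neither count. The input change of Sst became 0.11 and that of Mt2 0.17 with the length and GC correction, with and without the block, and that of Aldoc -0.0143 under median-of-ratios scaling. The median of the proteasome list became 0.0269 with the length and GC correction, with and without the block, and with single libraries left out the medians ranged from -0.0907 to 0.0519 for oligodendrocyte precursor genes and from -0.112 to 0.00978 for ependymal genes. The cause of these shifts was not tested. Unknown depth and 2 pools a group limit calls among genes under 5 TPM.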
